A study of Mus musculus with 12 samples.

Results

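The genes of the matrix metalloproteinases (MMPs), the ADAM and ADAMTS proteases, the ADAMTS-like proteins (ADAMTSL) and the tissue inhibitors of metalloproteinases (TIMPs) were read in cultured mouse muscle stem cells. Members were all genes of the deposited table whose symbol is Mmp, Adam, Adamts, Adamtsl or Timp followed by a number, with or without a closing letter. That rule gave 59 of 23586 genes. Of these, 41 had at least 10 normalized counts in at least 3 of the 12 libraries and are described below. They were 7 of 14 MMP genes, 13 of 19 ADAM genes, 12 of 17 ADAMTS genes, all 5 ADAMTSL genes and all 4 TIMP genes. The other 18 members were Adam1b, Adam2, Adam5, Adam18, Adam32, Adam33, Adamts3, Adamts9, Adamts15, Adamts16, Adamts18, Mmp8, Mmp10, Mmp16, Mmp17, Mmp24, Mmp25 and Mmp28, which were not tested. Just inside the threshold lay Adam11, Adamts8 and Mmp9, each with exactly 3 libraries at 10 or more. Just outside it lay Adam1b and Adamts16. Adamts16 had 0 normalized counts in all 3 GFP-positive SIX2 libraries, against 12.2, 8.86 and 27.8 in GFP-positive control libraries. Those control values are 16, 16 and 33 reads, in libraries sequenced more deeply than the GFP-positive SIX2 ones. In GFP-negative libraries Adamts16 had 0, 0 and 5.41 with the SIX2 label and 6.43, 3.96 and 4.69 with the control label.

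All libraries came from cells of the genotype Pax3nLacZ-IRES-GFP, in which GFP reports the paired-box factor PAX3, and every group carried that allele. Cells were sorted by GFP, cultured with 20% serum and basic FGF at 4 ng/mL, and transfected by lipofection with 2 µg of the pCR3-Six2 plasmid, which holds the mouse Six2 cDNA, or of empty pCR3. The 4 groups of 3 libraries were GFP-positive SIX2, GFP-positive control, GFP-negative SIX2 and GFP-negative control, from at least 50000 cells per sample. Neither the age of the mice nor whether the libraries of a group are separate animals or cultures is given, so p-values measure the spread between these libraries, which may be technical. SIX2 is a homeobox transcription factor, and the design compares its plasmid with the empty one in each sorted population.

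MMPs cut collagens and other proteins of the extracellular matrix, either after secretion or from the cell surface. ADAMs are membrane proteases that release the outer part of other membrane proteins, while ADAMTS proteases are secreted and cut proteoglycans, procollagens and microfibril proteins. ADAMTSL proteins share the non-catalytic part of ADAMTS proteases and bind matrix microfibrils without cutting, and TIMPs block the active sites of MMPs and of some ADAM and ADAMTS enzymes. In muscle, stem cells need such enzymes to pass the basal lamina, and several ADAMs were first studied in myoblasts for a link to cell fusion.

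The labels were read first. Six2 had 2 to 36 reads in any library and averaged 19.5 ± 11.5 normalized counts in GFP-positive SIX2, 7.34 ± 5.24 in GFP-positive control, 21.9 ± 2.37 in GFP-negative SIX2 and 14.8 ± 10.1 in GFP-negative control libraries (SD, n = 3 each). The plasmid-label difference of Six2 missed the threshold in both populations (limma-trend adjusted p = 0.209 and 0.421), so Six2 did not check the plasmid labels. Pax3 was not called between GFP labels in control libraries (72.2 ± 19 in GFP-positive, 71.4 ± 2.79 in GFP-negative, log2 difference −0.01, adjusted p = 0.991), and so gave no check of the sort. By plasmid label Pax3 was lower in SIX2 libraries, at 10.4 ± 5.69 in GFP-positive SIX2 and 16.5 ± 2.72 in GFP-negative SIX2 libraries (−2.82, adjusted p = 0.00029, and −2.06, adjusted p = 0.0022, against the control libraries of each). "SIX2", "control", "GFP-positive" and "GFP-negative" below therefore mean the library labelled so. Depth came to 12632428 to 15492340 reads per GFP-positive SIX2 library, 31295165 to 47299937 in GFP-positive control, 34048869 to 40182810 in GFP-negative SIX2 and 12438885 to 33151990 in GFP-negative control. Every GFP-positive SIX2 library thus had fewer reads than every GFP-positive control library, so depth and plasmid label go together in that population. A single read was worth 0.553 to 2.14 normalized counts, so members near 10 normalized counts rest on few reads. The myoblast genes Des and Myod1 were abundant in every library. Of the defining markers of other cell types, Ptprc of leukocytes, Sox10 of Schwann cells, Tnmd of tendon cells and Lum of fibro-adipogenic cells were not analysed here, and Dcn, also of fibro-adipogenic cells, was at 0 in all but 1 library. Dcn does not speak for the other markers. Gsn and Pdgfra, also on the fibro-adipogenic list, had group means of 2857 to 3446 and 8.11 to 15.6. Scx of tendon cells averaged 304 to 467, and Abcc9 and Pdgfrb of pericytes 1243 to 1645 and 196 to 387. The share of other cell types was not tested, and the lists are read below.

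To show the regulatory sequence beside the expression of members that moved with the plasmid label, promoter windows were taken from RefSeq sequence of build GRCm38.p6. A window spans 250 bases before to 50 bases after the annotated start. The table held windows for 27 of the 41 described members, 30 windows in all. Adamts14 and Timp3 were higher with the SIX2 label in both populations, Adamtsl2 and Adamtsl5 were lower in both, and Timp1, the most abundant member, did not pass the threshold in either. The windows are printed 5′ to 3′ along the gene, with matches in capitals to the motifs GGGCGG (the GC box of Sp factors), CAGCTG (an E-box read by myogenic factors) and TCAGGTTTC (the MEF3 motif, read by SIX2 and its relatives), each searched on both strands.
Adamts14, chr10:61273370-61273669, minus strand: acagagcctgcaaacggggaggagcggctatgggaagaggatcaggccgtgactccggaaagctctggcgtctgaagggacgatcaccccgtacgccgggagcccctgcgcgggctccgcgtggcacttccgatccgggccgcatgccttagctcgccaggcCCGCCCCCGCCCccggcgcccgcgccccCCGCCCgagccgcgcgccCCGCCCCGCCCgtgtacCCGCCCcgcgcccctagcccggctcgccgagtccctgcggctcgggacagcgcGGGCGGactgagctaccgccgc
Timp3, chr10:86300162-86300461, plus strand: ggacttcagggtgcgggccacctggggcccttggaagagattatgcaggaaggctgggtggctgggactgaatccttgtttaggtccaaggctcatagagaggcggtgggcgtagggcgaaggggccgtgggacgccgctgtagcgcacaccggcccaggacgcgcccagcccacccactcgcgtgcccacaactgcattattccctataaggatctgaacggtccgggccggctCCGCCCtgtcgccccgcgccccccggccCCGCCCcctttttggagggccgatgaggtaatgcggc
Adamtsl2, chr2:27079129-27079428, plus strand: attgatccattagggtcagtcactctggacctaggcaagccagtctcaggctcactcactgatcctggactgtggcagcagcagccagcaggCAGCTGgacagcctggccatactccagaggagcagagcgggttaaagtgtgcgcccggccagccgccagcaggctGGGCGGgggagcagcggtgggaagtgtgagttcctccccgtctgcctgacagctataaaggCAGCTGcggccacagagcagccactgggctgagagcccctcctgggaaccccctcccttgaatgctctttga
Adamtsl5, chr10:80348399-80348698, minus strand: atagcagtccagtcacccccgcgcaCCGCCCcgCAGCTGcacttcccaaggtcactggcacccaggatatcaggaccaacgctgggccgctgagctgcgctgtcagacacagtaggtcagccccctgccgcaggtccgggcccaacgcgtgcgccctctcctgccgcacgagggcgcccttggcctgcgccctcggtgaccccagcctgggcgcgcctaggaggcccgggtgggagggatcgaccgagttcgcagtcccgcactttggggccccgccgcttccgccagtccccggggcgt
Timp1, chrX:20869916-20870215, plus strand: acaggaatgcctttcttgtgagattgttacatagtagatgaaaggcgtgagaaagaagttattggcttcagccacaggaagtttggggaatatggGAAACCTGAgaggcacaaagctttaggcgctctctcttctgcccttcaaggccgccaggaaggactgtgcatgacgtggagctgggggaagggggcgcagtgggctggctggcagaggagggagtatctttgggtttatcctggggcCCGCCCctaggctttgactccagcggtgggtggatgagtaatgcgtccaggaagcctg
The Adamts14 window held 7 GC boxes, of which those starting at bases 209 and 214 overlap, the Timp3 window held 2, and the Adamtsl2, Adamtsl5 and Timp1 windows held 1 each. E-boxes lay in the Adamtsl2 window (2) and the Adamtsl5 window (1). The MEF3 letters stood in 1 of the 30 member windows, that of Timp1 at base 96, and in 0.429% of the 32851 windows of all genes. GC boxes stood in 66.7% of member windows against 35.7% of all windows, and E-boxes in 30% against 16.3%. The AP-1 motif TGANTCA, known from human MMP promoters, stood in 1 member window, that of Adam19, against 7.81% of all windows. Member windows came only from members above the count threshold, while the windows of all genes had no such filter, so the 2 sets are not alike. These shares were not tested, and the letters describe the windows alone. Adam9, Adamts5, Adamts7 and Adamts10 have no window shown.

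Levels are set out first, per kilobase of exon, since longer transcripts give more reads. Timp1, a soluble inhibitor, averaged 5340 normalized counts per kilobase over the 12 libraries, the highest level among the 41 members. Next came the sheddase Adam9 (728), Timp2 (589), the sheddase Adam10 (351), which cuts Notch, the membrane-type enzyme Mmp15 (322) and Adam17 (223), which releases tumour necrosis factor. The lowest was Adam22 (1.17), a family member without protease activity. By family, the highest levels were Mmp15 for the MMPs, Adam9 for the ADAMs, Adamts1 (127) for the ADAMTS proteases, Adamtsl5 (155) for the ADAMTS-like proteins and Timp1 for the inhibitors. Timp1, Adam10 and Adam17 were called in none of the 5 comparisons.

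**Figure D1:**
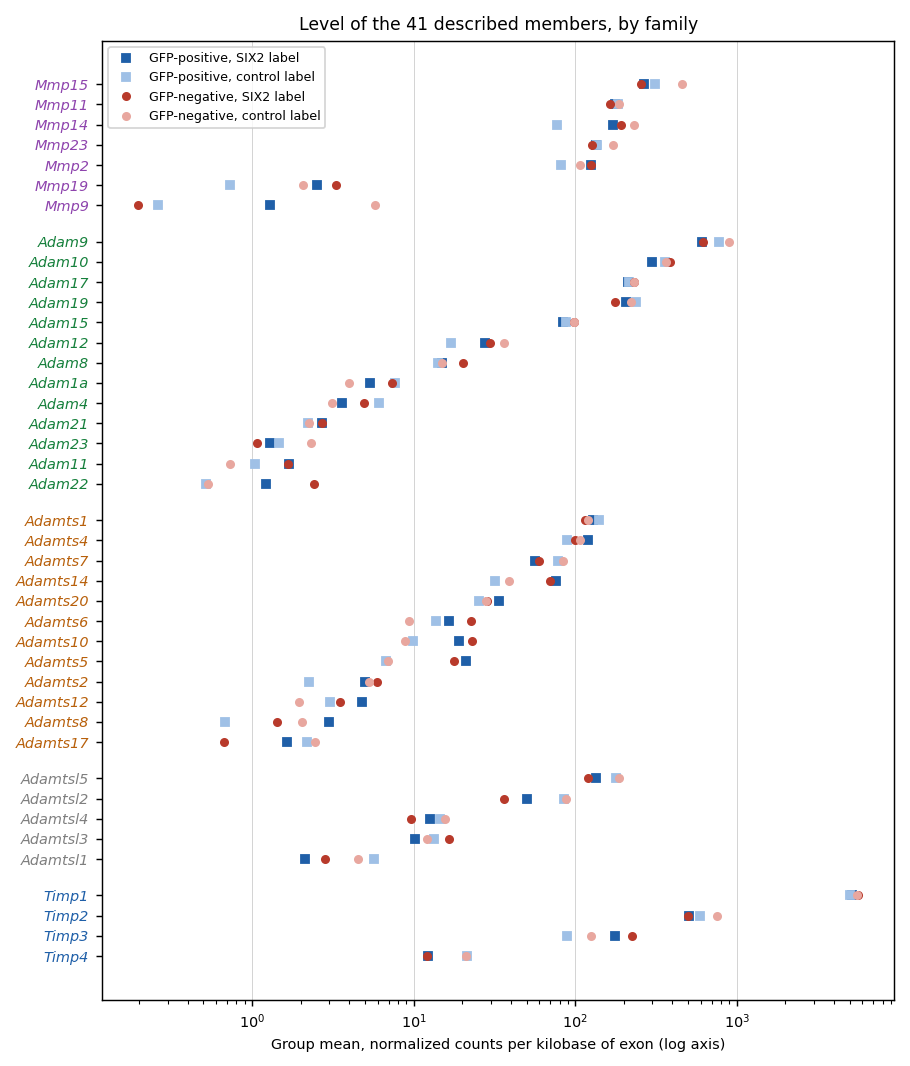
Group means of the 41 described members in normalized counts per kilobase of exon (log axis), ordered by mean level within each family, with squares for GFP-positive and circles for GFP-negative libraries and the darker shade for the SIX2 label. Levels span Timp1 at 5340 to Adam22 at 1.17 as means over all 12 libraries.

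Several secreted members differed with the plasmid label. In GFP-positive libraries 13 of the 41 members were called (limma-trend, adjusted p under 0.05), 7 higher and 6 lower with the SIX2 label, a share of 31.7% beside 23.3% of all 14580 tested genes. In GFP-negative libraries 15 were called, 6 higher and 9 lower, a share of 36.6% beside 27.9% of all tested genes. Over all tested genes, the GFP-positive comparison called 12.1% higher and 11.2% lower, and the GFP-negative comparison 13.6% higher and 14.3% lower. The median log2 difference of the 41 members was −0.01 among GFP-positive libraries, beside −0.01 over all tested genes, and −0.00 among GFP-negative libraries, beside 0.00. Adamts5, Adamts10, Adamts14 and Timp3 were higher in both populations (9.76% of members, beside 7.42% of tested genes). Adam9, Adamts7, Adamtsl2 and Adamtsl5 were lower in both (9.76%, beside 6.31%). At least 1 plasmid comparison called 20 members (48.8%, beside 37.4%), while 21 were called in at least 1 of the 5 comparisons (51.2%, beside 38.1%) and 20 in none (48.8%, beside 61.9%). The SIX2 and control libraries did not overlap for 41.5% of members in GFP-positive libraries, beside 36.8% of tested genes, and for 51.2% in GFP-negative libraries, beside 46.3%. In bulk RNA, fewer cells that express a gene and less of its RNA per cell cannot be told apart.

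By family, the ADAMTS proteases had 4 genes higher and 1 lower of 12 in GFP-positive libraries (median log2 difference 0.61), and 4 higher and 2 lower in GFP-negative libraries (0.17). The 5 ADAMTSL genes had 3 lower and 0 higher in GFP-positive libraries (median −0.41), and 2 lower and 0 higher in GFP-negative libraries (−0.76). Of the 13 ADAM genes, GFP-positive libraries had 1 higher and 1 lower, and GFP-negative libraries 1 higher and 2 lower. Of the 7 MMP genes, 1 was higher and 0 were lower among GFP-positive libraries, against 0 higher and 2 lower among GFP-negative libraries. Among the 4 TIMPs, 1 was higher and 1 lower in each population. The summed normalized counts of all 5 ADAMTSL genes were 1074 to 1281 in GFP-positive SIX2 libraries and 1663 to 1903 in GFP-positive control libraries, and 928 to 1244 in GFP-negative SIX2 and 1735 to 1920 in GFP-negative control libraries, with no overlap in either population. Adamtsl2 and Adamtsl5 made up most of these sums, which therefore mainly restate those 2 genes. Adamtsl3 went the other way in GFP-negative libraries without overlap, at 117 to 152 with the SIX2 label against 84.4 to 101 with the control label, and was not called.

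**Figure D2:**
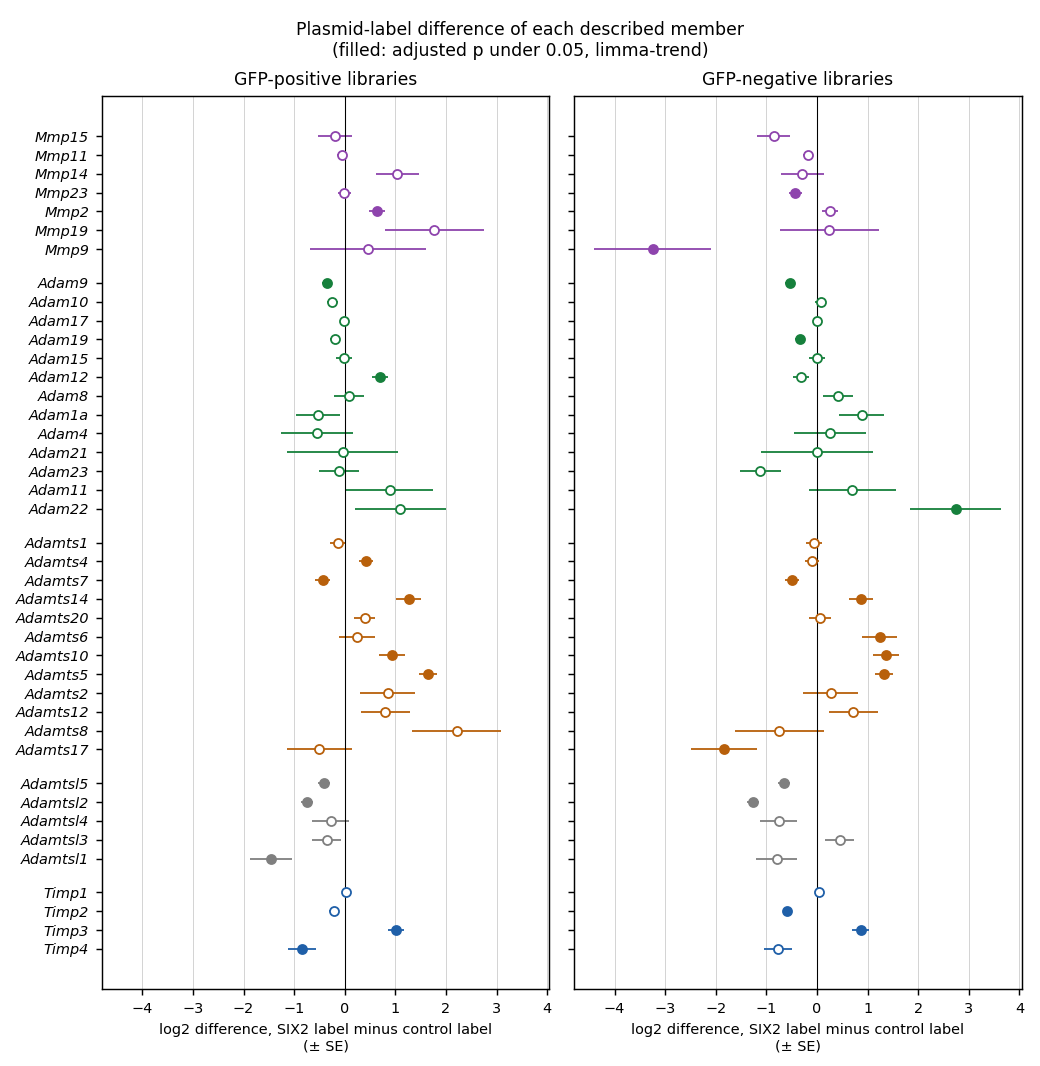
Log2 difference, SIX2 label minus control label, of each described member with its SE, in GFP-positive (left) and GFP-negative libraries (right), filled where the adjusted p was under 0.05. Adamts5, Adamts10, Adamts14 and Timp3 are filled right of 0 in both panels, and Adam9, Adamts7, Adamtsl2 and Adamtsl5 are filled left of 0 in both.

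Adamts5, an aggrecanase that cuts aggrecan and versican, had the largest increase among the members called higher in GFP-positive libraries. The gene (ENSMUSG00000022894.6) lies on GRCm38 chromosome 16, 85856173 to 85901828, minus strand. It had 225, 216 and 243 normalized counts in GFP-positive SIX2 libraries, against 73.4, 66.4 and 77.6 in GFP-positive control libraries. The GFP-negative SIX2 libraries had 221, 192 and 158, against 83.5, 80.1 and 61.9 in GFP-negative control libraries. Every SIX2 library lay above every control library. The log2 difference was 1.64 ± 0.18 (SE) in GFP-positive (adjusted p = 3.82e-05) and 1.33 ± 0.18 in GFP-negative libraries (adjusted p = 0.00016). The other aggrecanase described, Adamts4, rose in GFP-positive libraries, with 514, 532 and 684 in SIX2 against 496, 402 and 391.5 in control (log2 0.42 ± 0.13, adjusted p = 0.0338). That call ended without GFP-positive SIX2 replicate 3 (0.29, adjusted p = 0.132), without GFP-positive control replicate 2 (0.104) or replicate 3 (0.11), with only the compared libraries in the fit (0.0937), under quantile normalization (0.0634) and with a replicate block (0.0553), over a range of 0.014 to 0.132 for 25 alternatives. In GFP-negative libraries Adamts4 averaged 479 ± 8.54 with the SIX2 label and 516 ± 51.4 with the control label (adjusted p = 0.606). Adamts1, which also cuts versican, was called in neither population, at 685 ± 135 and 750 ± 79.9 in GFP-positive SIX2 and control, and 614 ± 97.4 and 638 ± 48.5 in GFP-negative SIX2 and control libraries.

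Adamts10, a protease tied to fibrillin microfibrils, is ENSMUSG00000024299.17 on chromosome 17, 33524204 to 33553782, plus strand. It had 184, 144 and 142 normalized counts in GFP-positive SIX2 libraries, against 102.5, 64.2 and 80.1 in GFP-positive control libraries. With the GFP-negative label the counts were 236, 194 and 139.5 in SIX2 libraries, against 53.6, 91.2 and 75.0 in control libraries. No SIX2 library overlapped a control library of its population. The log2 difference was 0.94 ± 0.26 in GFP-positive (adjusted p = 0.0177) and 1.36 ± 0.26 in GFP-negative libraries (adjusted p = 0.00153). The GFP-positive call ended without GFP-positive SIX2 replicate 1 (adjusted p = 0.0649) or GFP-positive control replicate 2 (0.0725), with 0.00407 to 0.0725 over 25 alternatives. Its close relative Adamts6 averaged 130 ± 53.3 in GFP-positive SIX2 and 107 ± 36.7 in GFP-positive control libraries, which overlapped (adjusted p = 0.679). In GFP-negative libraries Adamts6 had 245, 149.5 and 136 with the SIX2 label, against 53.6, 84.0 and 81.6 with the control label (log2 1.24 ± 0.35, adjusted p = 0.0163), a call that ended without GFP-negative SIX2 replicate 1 (adjusted p = 0.0714) or GFP-negative control replicate 1 (0.0715), with 0.00173 to 0.0715 over 25 alternatives. Adamts17, another microfibril-associated protease, went the other way in GFP-negative libraries, where it had 7.85, 5.93 and 1.80 with the SIX2 label, against 19.3, 22.2 and 15.9 with the control label. Its log2 difference of −1.84 ± 0.65 was near the threshold (adjusted p = 0.0498) and missed it in 13 of 24 alternatives, which ranged from 0.00908 to 0.182. They were a pseudocount of 0.5 (0.0523), no filter (0.0852), TMM scaling (0.0503), either GC trend removed (0.0555 and 0.0595) and leaving out GFP-negative SIX2 replicate 2 (0.077) or 3 (−1.35, 0.182), any GFP-negative control replicate (0.085 to 0.135), GFP-positive SIX2 replicate 3 (0.0548) or GFP-positive control replicate 1 (0.0524) or 2 (0.0635). In GFP-positive libraries Adamts17 averaged 12.8 ± 8.77 with the SIX2 label and 17 ± 8.89 with the control label, which overlapped.

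Adamts14, a procollagen N-proteinase whose promoter window is printed above, is ENSMUSG00000059901.12 on chromosome 10, 61197112 to 61273438, minus strand. It had 432, 353 and 397 normalized counts in GFP-positive SIX2 libraries, against 141, 187 and 166 in GFP-positive control libraries. Counts were 276, 405 and 408 in GFP-negative SIX2 libraries, against 259, 227.5 and 125 in GFP-negative control libraries. The GFP-positive groups stood far apart, and the GFP-negative groups did not overlap but came close, at 276 and 259. The log2 difference was 1.26 ± 0.24 in GFP-positive (adjusted p = 0.00217) and 0.87 ± 0.24 in GFP-negative libraries (adjusted p = 0.0161). The GFP-negative call ended without GFP-negative SIX2 replicate 2 (adjusted p = 0.0647) or replicate 3 (0.0644), or without GFP-negative control replicate 3, where the difference was 0.55 (0.0606), with 0.00189 to 0.0647 over 25 alternatives. Adamts2, the main procollagen N-proteinase of skin, was lower in level and not called, at 46.6 and 21 mean normalized counts in GFP-positive SIX2 and control and 55 and 49.5 in GFP-negative SIX2 and control libraries.

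Adamts7, which cuts cartilage oligomeric matrix protein, was lower with the SIX2 label. The gene (ENSMUSG00000032363.15) lies on chromosome 9, 90163069 to 90208071, plus strand. It had 368, 308 and 394 normalized counts in GFP-positive SIX2 libraries, against 600.5, 443 and 423 in GFP-positive control libraries. In GFP-negative libraries it had 403, 369 and 349 with the SIX2 label, against 572, 489.9 and 521.5 with the control label. The groups did not overlap in either population, with log2 differences of −0.44 ± 0.14 (adjusted p = 0.039) and −0.50 ± 0.14 (adjusted p = 0.0199) in GFP-positive and GFP-negative libraries. The GFP-negative call ended without GFP-negative SIX2 replicate 2 (adjusted p = 0.0567) or 3 (0.069), without GFP-negative control replicate 1 (0.0771) and with the trend with transcript GC content removed (0.0611), with 0.00472 to 0.0771 over 25 alternatives. The GFP-positive call ended in 8 of 25 alternatives, which ranged from 0.0211 to 0.172. They were no filter (0.0544), only the compared libraries (0.107) and leaving out GFP-positive SIX2 replicate 1 (0.0625) or 2 (0.145), GFP-positive control replicate 1 (−0.29, 0.172), GFP-negative SIX2 replicate 2 (0.0531) or GFP-negative control replicate 2 (0.0513) or 3 (0.051). Of the Adamts7 exon length, 1.94% overlaps Tbc1d2b on the other strand, which had 21.4 to 99.2 normalized counts. The related protease Adamts12 was not called, at 52.1 and 33.3 mean normalized counts in GFP-positive SIX2 and control, and 38.4 and 21.4 in GFP-negative SIX2 and control libraries. Adamts20, a versican-cutting protease, and Adamts8 were not called in any comparison, and Adamts8 stayed at 3.14 to 13.9 mean normalized counts.

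Adamtsl2, which binds fibrillin and a latent TGF-beta binding protein, had the smallest adjusted p among the members in GFP-negative libraries. The gene (ENSMUSG00000036040.14) lies on chromosome 2, 27079379 to 27108981, plus strand. It had 402, 413 and 400.5 normalized counts in GFP-positive SIX2 libraries, against 569.9, 783 and 698 in GFP-positive control libraries. The GFP-negative SIX2 libraries had 296, 300.4 and 272.5, against 651, 660 and 789 in GFP-negative control libraries. All 6 SIX2 libraries lay below all 6 control libraries, and the log2 difference was −0.74 ± 0.12 in GFP-positive (adjusted p = 0.000786) and −1.27 ± 0.12 in GFP-negative libraries (adjusted p = 1.31e-05). Adamtsl5, also found with fibrillin (ENSMUSG00000043822.18, chromosome 10, 80339110 to 80348412, minus strand), had 573, 649 and 685.5 in GFP-positive SIX2 libraries, against 848, 837 and 849.6 in GFP-positive control libraries. In GFP-negative libraries Adamtsl5 had 679.7, 535 and 478 with the SIX2 label, against 893, 858 and 895 with the control label. Here too all 6 SIX2 libraries lay below all 6 control libraries, with log2 differences of −0.41 ± 0.12 (adjusted p = 0.0213) and −0.66 ± 0.12 (adjusted p = 0.00105) in GFP-positive and GFP-negative libraries. The GFP-positive call of Adamtsl5 ended without GFP-positive SIX2 replicate 1 (adjusted p = 0.0792) or GFP-positive control replicate 1 (0.056), 2 (0.0501) or 3 (0.0519), with 0.00663 to 0.0792 over 25 alternatives. Adamtsl1, a secreted matrix protein, had 16.1, 29.2 and 35.8 in GFP-positive SIX2 libraries, against 79.6, 72.5 and 65.8 in GFP-positive control libraries (log2 −1.46 ± 0.41, adjusted p = 0.0199), and it overlapped in GFP-negative libraries (−0.80 ± 0.41, adjusted p = 0.17). The GFP-positive values rest on 9, 15 and 22 reads with the SIX2 label and 104, 131 and 78 with the control label. That Adamtsl1 call ended without GFP-positive SIX2 replicate 1 (adjusted p = 0.077) or GFP-positive control replicate 1 (0.0616) or 2 (0.0511), with 0.00815 to 0.077 over 25 alternatives. Adamtsl3 and Adamtsl4, a fibrillin-binding protein of the eye lens, were not called in any comparison.

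**Figure D3:**
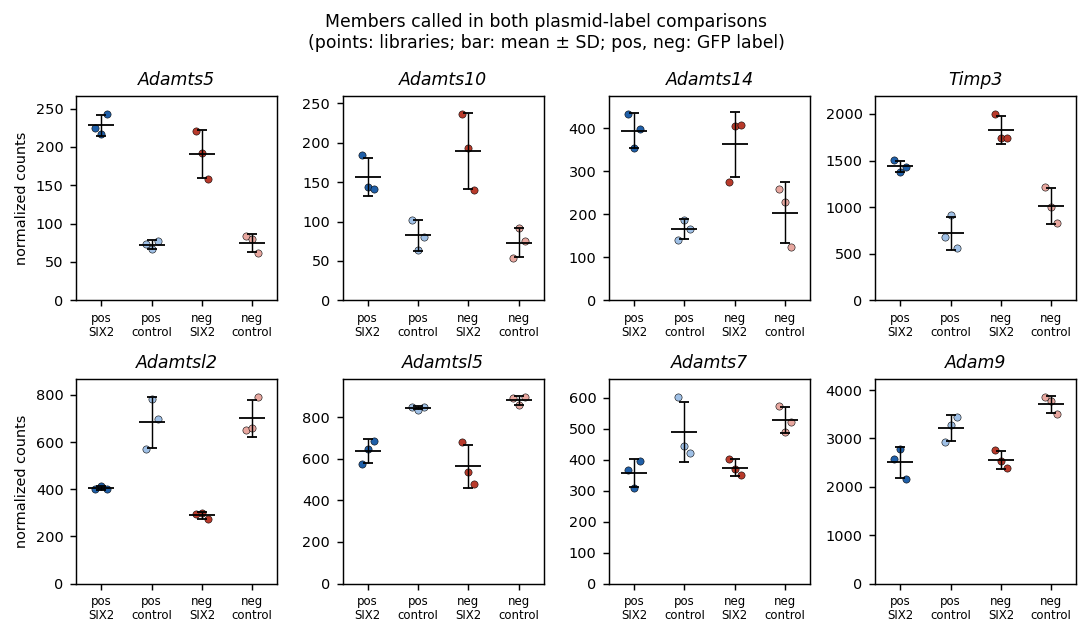
Normalized counts per library (points) with mean and SD (bars) for the 8 members called in both plasmid-label comparisons, with the GFP-positive groups left of the GFP-negative groups and SIX2 left of control in each panel. In each of the 8 panels no SIX2 library overlaps the control libraries of its population, as for 36.8% of all tested genes in the GFP-positive population and 46.3% in the GFP-negative one.

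Among the inhibitors, Timp3 rose and the others did not. Timp3 stays bound to the matrix and blocks ADAM17 and the aggrecanases as well as MMPs. The gene (ENSMUSG00000020044.13, chromosome 10, 86300372 to 86349506, plus strand) had 1502, 1380 and 1433 normalized counts in GFP-positive SIX2 libraries, against 681.6, 914.9 and 566.1 in GFP-positive control libraries. With the GFP-negative label the counts were 1998, 1740 and 1742 in SIX2 libraries, against 1217, 1001 and 830.1 in control libraries. Every SIX2 library lay above every control library of its population, with log2 differences of 1.02 ± 0.16 (adjusted p = 0.000467) and 0.86 ± 0.16 (adjusted p = 0.0013) in GFP-positive and GFP-negative libraries. Of the Timp3 exon length, 21.3% overlaps Syn3 on the other strand, which had 0 to 14.3 normalized counts. Timp2, which bridges MMP14 and pro-MMP2 at the cell surface (ENSMUSG00000017466.9, chromosome 11, 118301069 to 118355740, minus strand), had 2031, 1993 and 1929.5 in GFP-positive SIX2 libraries, against 2413, 2208 and 2296 in GFP-positive control libraries. The difference there missed the threshold (−0.22 ± 0.09, adjusted p = 0.0854), although the groups did not overlap. In GFP-negative libraries Timp2 fell, with 2209, 1965 and 1693 with the SIX2 label against 3005, 2858 and 2940 with the control label (−0.59 ± 0.09, adjusted p = 0.000221).

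Timp1 (ENSMUSG00000001131.11, chromosome X, 20870166 to 20874735, plus strand) had 4880, 4250 and 4551 normalized counts in GFP-positive SIX2 libraries, against 4390, 4408 and 4587 in GFP-positive control libraries. Counts were 5117, 4955 and 5008 in GFP-negative SIX2 libraries, against 5501, 4791 and 4451 in GFP-negative control libraries. The groups overlapped in both, with log2 differences of 0.03 ± 0.08 (adjusted p = 0.828) and 0.04 ± 0.08 (adjusted p = 0.749). Timp4, the inhibitor best known from heart and muscle, had 41.1, 87.7 and 89.6 in GFP-positive SIX2 libraries, against 125.5, 111 and 140.1 in GFP-positive control libraries (−0.85 ± 0.28, adjusted p = 0.0443). That call ended in 14 of 25 alternatives, which ranged from 0.0274 to 0.161. They were no filter (0.0734), only the compared libraries (0.105), a replicate block (0.0668), library weights (0.0912), edgeR (0.0567) and leaving out GFP-positive SIX2 replicate 1 (−0.49, 0.161), any GFP-positive control replicate (0.064 to 0.121), any GFP-negative SIX2 replicate (0.0533 to 0.0581) or GFP-negative control replicate 2 or 3 (0.054 and 0.0543). In GFP-negative libraries Timp4 had 68.5, 70.5 and 74.6 with the SIX2 label, against 163, 102 and 109.7 with the control label, with no overlap but short of the threshold (−0.77 ± 0.28, adjusted p = 0.0581). Timp4 shares 1.53% of its exon length with Syn2 on the other strand, which had 96.1 to 663 normalized counts.

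The membrane sheddase Adam9 fell with the SIX2 label in both populations. The gene (ENSMUSG00000031555.15, chromosome 8, 24949611 to 25016927, minus strand) had 2583, 2779 and 2154 normalized counts in GFP-positive SIX2 libraries, against 2921, 3282 and 3440 in GFP-positive control libraries. In GFP-negative libraries it had 2757, 2531 and 2381 with the SIX2 label, against 3847, 3767 and 3504 with the control label. No groups overlapped, with log2 differences of −0.36 ± 0.10 (adjusted p = 0.0143) and −0.54 ± 0.10 (adjusted p = 0.00106) in GFP-positive and GFP-negative libraries. The GFP-positive call ended without GFP-positive SIX2 replicate 3 (−0.26, adjusted p = 0.0534) or GFP-positive control replicate 3 (0.055) and with only the compared libraries (0.0503), with 0.00317 to 0.055 over 25 alternatives. Adam10 and Adam17 were not called. Adam10 averaged 1471 ± 141 and 1758 ± 251 in GFP-positive SIX2 and control, and 1885 ± 220 and 1784 ± 72.8 in GFP-negative SIX2 and control libraries. Adam17 shares 4.35% of its exon length with Iah1 on the other strand. For Adam17 the means were 1521 ± 65.3 and 1532 ± 149 in GFP-positive SIX2 and control, and 1663 ± 45 and 1666 ± 87.3 in GFP-negative SIX2 and control libraries.

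Adam19, also called meltrin beta, had 1470, 1385 and 1573 normalized counts in GFP-positive SIX2 libraries, against 1707, 1684 and 1662 in GFP-positive control libraries, without overlap but not called (−0.19, adjusted p = 0.181). In GFP-negative libraries it fell, with 1332, 1369 and 1057 with the SIX2 label against 1478, 1701 and 1571 with the control label (−0.34 ± 0.10, adjusted p = 0.018). The call ended without GFP-negative SIX2 replicate 3 (−0.23, adjusted p = 0.0723) or GFP-negative control replicate 2 (0.0814), with 0.00282 to 0.0814 over 25 alternatives. Adam22, a receptor of the secreted protein LGI1 with no protease activity, had 35.7, 40.8 and 27.7 in GFP-negative SIX2 libraries, against 8.57, 14.3 and 0 in GFP-negative control libraries (2.74 ± 0.90, adjusted p = 0.0368). Its call ended without GFP-negative SIX2 replicate 1 (0.0819), 2 (0.0999) or 3 (0.0711), without GFP-negative control replicate 3, the library at 0, where the difference was 1.55 (0.137), with no filter (0.0568), under quantile normalization (0.0557) and in edgeR (0.0642), with 0.0183 to 0.137 over 24 alternatives. In GFP-positive libraries Adam22 overlapped, at 28.6, 5.85 and 17.9 with the SIX2 label and 9.94, 2.21 and 10.1 with the control label. Adam15 and Adam8, both membrane proteases, and the low members Adam1a, Adam4, Adam11, Adam21 and Adam23 were called in none of the 5 comparisons. Of the Adam1a exon length, 63.7% overlaps Gm42878 and 24% overlaps Mapkapk5 on the same strand, so its reads are uncertain.

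Adam12, or meltrin alpha, is a membrane protease of fusing and regenerating muscle. The gene (ENSMUSG00000054555.11) lies on chromosome 7, 133883199 to 134232146, minus strand. It had 298, 331 and 246 normalized counts in GFP-positive SIX2 libraries, against 189, 173 and 175.5 in GFP-positive control libraries. The GFP-negative SIX2 libraries had 249.9, 347 and 339.8, against 435, 358 and 364 in GFP-negative control libraries. The SIX2 libraries thus lay above the control libraries in the GFP-positive population and below them in the GFP-negative one. The GFP-positive difference was called (0.69 ± 0.16, adjusted p = 0.00656), and the GFP-negative one was not (−0.31 ± 0.16, adjusted p = 0.162). The difference between them, the interaction of plasmid and GFP label, was 1.00 ± 0.22 on the log2 scale and missed the threshold (adjusted p = 0.0988).

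Of the MMPs, the membrane-type genes Mmp14 and Mmp15 varied widely between the replicates of the GFP-positive groups. Mmp14, the membrane-type enzyme that activates pro-MMP2 (ENSMUSG00000000957.11, chromosome 14, 54431612 to 54445364, plus strand), had 1781, 844 and 438 normalized counts in GFP-positive SIX2 libraries, against 241, 455.5 and 681 in GFP-positive control libraries. With the GFP-negative label the counts were 886, 1134 and 1432 in SIX2 libraries, against 1634, 1352 and 1178 in control libraries. The groups overlapped in both populations, and neither difference was called (1.04 ± 0.42, adjusted p = 0.0931, and −0.29 ± 0.42, adjusted p = 0.661). Mmp15, the second membrane-type enzyme, had 1922, 1563 and 806 in GFP-positive SIX2 libraries, against 1001, 1329 and 2724 in GFP-positive control libraries. In GFP-negative libraries Mmp15 had 1581, 1381 and 1152 with the SIX2 label, against 2313, 2605 and 2489.5 with the control label, without overlap but short of the threshold (−0.86 ± 0.33, adjusted p = 0.0652).

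Both genes hold stretches of high GC content, and the libraries differed in the level of such genes. The highest GC content of any 200-base stretch was 78% for Mmp14, above that of 87.8% of tested genes, 77.5% for Mmp15 (86.6%), 80.5% for Adam12 (93.3%) and 81.5% for Timp2 (94.9%). The tenth of genes with the highest such value had a median log2 deviation of 0.013, −0.036 and −0.106 in GFP-positive SIX2 libraries 1 to 3, and of −0.134, −0.069 and 0.034 in GFP-positive control libraries 1 to 3. It was −0.006, 0.029 and 0.072 in GFP-negative SIX2 libraries and 0.158, 0.102 and 0.147 in GFP-negative control libraries. In both GFP-positive groups Mmp14 and Mmp15 put the 3 libraries in the same order as this deviation did, and so did Mmp14 in GFP-negative SIX2 libraries. Mmp15 ran in the opposite order to the deviation in both GFP-negative groups, and Mmp14 did not follow it in GFP-negative control libraries. Its part in the spread of Mmp14 and Mmp15 was not tested.

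**Figure D4:**
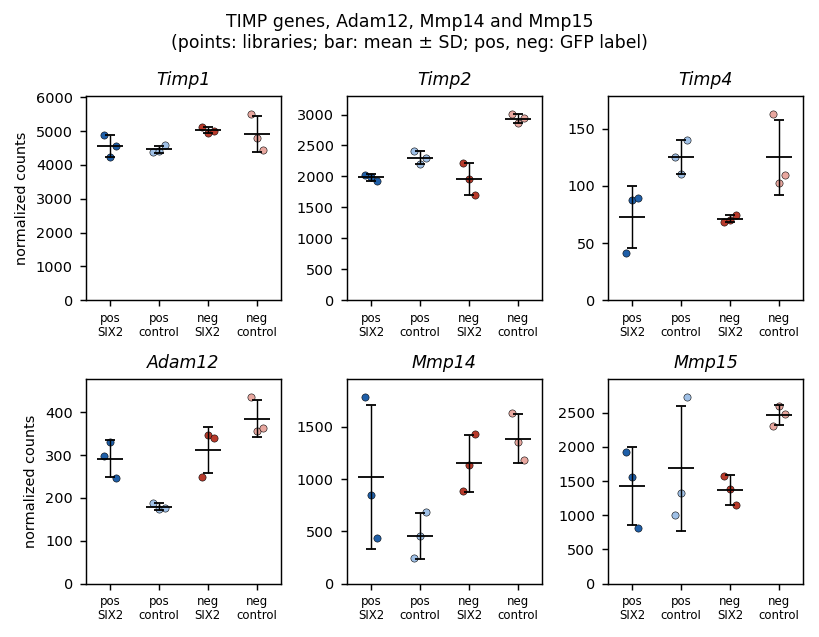
Normalized counts per library (points) with mean and SD (bars) for Timp1, Timp2, Timp4, Adam12, Mmp14 and Mmp15, with the GFP-positive groups left of the GFP-negative groups and SIX2 left of control. Mmp14 in GFP-positive SIX2 libraries spans 438 to 1781, while Adam12 in GFP-positive control libraries stays between 173 and 189.

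Mmp2, the gelatinase whose precursor MMP14 activates with TIMP2, rose in GFP-positive libraries, with 484, 417 and 374.5 normalized counts with the SIX2 label against 216.5, 310.5 and 303 with the control label (0.63 ± 0.16, adjusted p = 0.0131). That call ended without GFP-positive SIX2 replicate 1 (0.53, adjusted p = 0.0538) or GFP-positive control replicate 1 (0.46, 0.0586), with 0.00278 to 0.0586 over 25 alternatives. In GFP-negative libraries Mmp2 overlapped, with 471, 392 and 410.2 with the SIX2 label and 353, 309 and 415 with the control label (adjusted p = 0.292). Mmp9, the other gelatinase, was barely detected. It had 0, 13.6 and 0 in GFP-positive SIX2 libraries and 0, 1.11 and 1.69 in GFP-positive control libraries, which overlapped. Counts were 1.43, 0.659 and 0 in GFP-negative SIX2 libraries, against 40.7, 16.6 and 3.75 in GFP-negative control libraries. These are 3 reads in all against 44 reads, a ratio, scaled for the depth of the groups, of 0.0416 with a 95% exact interval of 0.00826 to 0.13 that covers counting error only. The libraries at 10 or more were GFP-negative control 1 and 2 and GFP-positive SIX2 2. Mmp9 thus met the filter mainly through the group where it was high. Neither the interval nor the test below is separate evidence that this group is high. The log2 difference of −3.25 ± 1.15 lay at the threshold (adjusted p = 0.0499) and missed it in 11 of 24 alternatives, which ranged from 0.00543 to 0.199. They were a pseudocount of 0.5 (0.0685), a replicate block (0.0568), the transcript GC trend removed (0.0563) and leaving out any GFP-negative SIX2 replicate (0.0684 to 0.135), GFP-negative control replicate 1 (−2.53, 0.199) or 2 (0.133) or any GFP-positive control replicate (0.0515 to 0.0616). Mmp23, a small membrane-anchored enzyme, fell in GFP-negative libraries, with 284, 317 and 289.9 with the SIX2 label against 396, 367 and 438 with the control label (−0.43 ± 0.13, adjusted p = 0.024). That call ended without GFP-negative SIX2 replicate 1 (0.0686) or 3 (0.0658), without GFP-negative control replicate 1 (0.0567) or 3 (0.0929) and with the transcript GC trend removed (−0.28, 0.146), with 0.00921 to 0.146 over 25 alternatives. Mmp11, or stromelysin 3, and the low Mmp19 were called in none of the comparisons.

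Between GFP labels few members differed. In control libraries 3 of 41 members were called, all lower in GFP-positive cells, a share of 7.32% beside 3.48% of all tested genes (0.919% higher and 2.56% lower). Adam12 fell by 1.10 ± 0.16 on the log2 scale in GFP-positive control libraries, with 189, 173 and 175.5 normalized counts against 435, 358 and 364 in GFP-negative control libraries (adjusted p = 0.00387), and passed the threshold in all 25 alternatives. With the trend of high-GC stretches removed, an alternative chosen after seeing the data, the difference was −0.94 (adjusted p = 0.00667, and 3.44e-08 to 0.0312 over the alternatives). Mmp14 had 241, 455.5 and 681 in GFP-positive control libraries, against 1634, 1352 and 1178 in GFP-negative control libraries (−1.70 ± 0.42, adjusted p = 0.0446). The groups did not overlap, and the call ended in 13 of 25 alternatives, which ranged from 0.0038 to 0.189. They were no filter (0.057), quantile normalization (0.0556), a replicate block (0.0849), edgeR (0.0584) and leaving out GFP-positive control replicate 1 (−1.30, 0.189) or 2 (0.0936), any GFP-negative control replicate (0.0866 to 0.183), GFP-positive SIX2 replicate 2 (0.0654) or any GFP-negative SIX2 replicate (0.0509 to 0.0677). Timp2 had 2413, 2208 and 2296 in GFP-positive control libraries, against 3005, 2858 and 2940 in GFP-negative control libraries (−0.35 ± 0.09, adjusted p = 0.042). With the high-GC trend removed this was −0.19 (adjusted p = 0.296), the highest of 25 alternatives, of which 11 ended the call and the lowest was 0.0058. The others were no filter (0.0573), quantile normalization (0.0632) and leaving out any GFP-positive control replicate (0.0586 to 0.121), any GFP-negative control replicate (0.0936 to 0.164), GFP-positive SIX2 replicate 2 (0.0593) or GFP-negative SIX2 replicate 2 (0.0655).

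In SIX2 libraries 0 of 41 members differed between GFP labels (limma-trend, beside 0.192% of all tested genes), with 5 members at an unadjusted p under 0.05. By edgeR 0 members were called, and by DESeq2 1, Adamtsl2 (log2 0.49, adjusted p = 0.0367), which had 402, 413 and 400.5 normalized counts in GFP-positive SIX2 and 296, 300.4 and 272.5 in GFP-negative SIX2 libraries, against an adjusted p of 0.122 in limma-trend. Adam12 averaged 292 ± 43.1 in GFP-positive SIX2 and 312 ± 54.2 in GFP-negative SIX2 libraries (−0.09 ± 0.16, adjusted p = 0.849). For the interaction, 0 members were called by limma-trend (0% of all tested genes), with 9 at an unadjusted p under 0.05, 0 by edgeR and 1 by DESeq2, Adam12. A member called in 1 population and not in the other was therefore not shown to respond differently. The comparisons that hold the same control group are not independent of each other. The shares of all tested genes at an unadjusted p under 0.05 were not computed. The counts of 5 and 9 members at that level are therefore not read as an excess.

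Genes that act with these proteases were counted from lists. The counts by plasmid label stand beside 12.1% of all tested genes called higher and 11.2% lower in the GFP-positive population, and 13.6% higher and 14.3% lower in the GFP-negative one, and no list was tested against these shares. Of 9 tested genes of the plasminogen system, which activates several MMPs, SIX2 libraries of the GFP-positive population had 6 higher and 3 lower, and those of the GFP-negative population 5 higher and 1 lower. Serpine2, an inhibitor of plasminogen activators, averaged 375 ± 21.9 normalized counts in GFP-positive SIX2 and 83.2 ± 12.4 in GFP-positive control libraries (log2 2.17, adjusted p = 2.9e-06), and 488 ± 78.9 in GFP-negative SIX2 and 105 ± 13.1 in GFP-negative control libraries (2.21, adjusted p = 2.68e-06). Serpinb2, another such inhibitor, rose by 1.63 (adjusted p = 8.96e-05) and 1.81 (adjusted p = 4.16e-05) in the GFP-positive and GFP-negative populations. The rise was not confined to inhibitors. The activator Plat rose by 1.91 (adjusted p = 0.000116) and 0.85 (adjusted p = 0.0194), and Plaur by 1.05 and 0.96 (adjusted p = 0.00018 and 0.000277). The activator Plau rose in GFP-positive libraries (0.89, adjusted p = 0.0299) and was not called in GFP-negative ones (−0.39, adjusted p = 0.324). Between GFP labels in control libraries, the activators Plat and Plau were lower in GFP-positive cells (−2.29, adjusted p = 0.000395, and −1.16, adjusted p = 0.0367). Plat averaged 37.9 ± 2.99 in GFP-positive control and 194 ± 54.7 in GFP-negative control libraries.

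Of 9 tested matrix substrates of ADAMTS and MMP enzymes, SIX2 libraries had 6 higher and 0 lower within each population. Their median log2 differences were 0.99 and 0.64, beside −0.01 and 0.00 over all tested genes. Bgn, a small proteoglycan, averaged 6364 ± 861 in GFP-positive SIX2 and 2696 ± 138 in GFP-positive control libraries (1.23, adjusted p = 1.69e-05), and Nid1, of the basal lamina, 1113 ± 58.7 and 517 ± 85.9 (1.12, adjusted p = 0.000333). Vcan, a proteoglycan that aggrecanases cut, averaged 614 ± 88 in GFP-negative SIX2 and 260 ± 21.6 in GFP-negative control libraries (1.23, adjusted p = 0.000529). The microfibril gene Fbn1, whose protein ADAMTS10 and ADAMTSL proteins bind, averaged 718 ± 27.6 in GFP-negative SIX2 and 334 ± 80.4 in GFP-negative control libraries (1.13, adjusted p = 0.000384). In control libraries Fbn1 and Bgn were lower in GFP-positive cells (−0.90, adjusted p = 0.0177, and −0.65, adjusted p = 0.0153).

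Of 16 tested activators and surface partners, SIX2 libraries had 1 higher and 3 lower in the GFP-positive population, and 3 higher and 7 lower in the GFP-negative one. The GFP-positive counts lie near the shares of all tested genes. Tspan33 and Tspan14, tetraspanins that carry ADAM10 to the surface, fell in GFP-negative libraries (−1.11, adjusted p = 6.19e-05, and −0.58, adjusted p = 0.000119). In GFP-positive libraries Bsg, an inducer of MMPs, fell (−0.30, adjusted p = 0.000857), and Frmd8, a partner of the ADAM17 carriers iRhom, rose (0.64, adjusted p = 0.00124). In control libraries 0 of the 16 were higher and 1 was lower in GFP-positive cells, Tspan5 (−1.74, adjusted p = 0.0294). The membrane-anchored MMP inhibitor Reck was not called. Of 3 tested tolloid proteases and enhancers, 2 rose with the SIX2 label in the GFP-positive and 1 in the GFP-negative population, with Pcolce2, a procollagen C-proteinase enhancer, at 0.95 (adjusted p = 0.002) and 0.58 (adjusted p = 0.0287). Of 4 tested cathepsin and cystatin genes, the cysteine protease inhibitor Cst3 rose in both (0.38, adjusted p = 0.000578, and 0.27, adjusted p = 0.0047), and Ctsd and Ctsl fell in GFP-negative libraries. Thsd4, the tested ADAMTS-like gene outside the symbol rule, was not called.

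Marker lists of the cell types were read beside these results. Of 8 myoblast genes, 4 (Pax7, Myf5, Vcam1 and Sdc4) rose with the SIX2 label in either population, while 1 was lower in the GFP-positive and 3 in the GFP-negative one. Des was lower in both (log2 −0.29 and −0.67). Their summed normalized counts were 187668 to 208960 in GFP-positive SIX2, 216231 to 236503 in GFP-positive control, 147826 to 171758 in GFP-negative SIX2 and 214179 to 243289 in GFP-negative control libraries. Des, with group means of 105967 to 168413, made up most of these sums. Of 5 tested fibro-adipogenic markers, Smoc2 and Ly6a rose in both populations, and the list summed to 2978 to 3185, 2774 to 3267, 3393 to 3801 and 3401 to 3793 in the same 4 groups, while Pdgfra stayed between 0 and 27 normalized counts. Most of that list sum was Gsn, with group means of 2857 to 3446. The pericyte and smooth muscle list had 2 higher and 1 lower of 5 tested in each population, with sums of 2503 to 3532, 3467 to 3837, 2372 to 3327 and 3055 to 3776. The tendon list had 0 higher and 1 lower of 3 tested in GFP-positive and 1 higher and 1 lower in GFP-negative libraries, with sums of 432 to 562, 471 to 704, 417 to 471 and 525 to 593. Macrophage markers summed to 92.9 to 122, 104 to 124, 66.5 to 106 and 105 to 127, with Csf1r higher in both populations, and endothelial markers to 60.2 to 98.3, 36 to 60.7, 36.1 to 100 and 43.6 to 66.4, with Egfl7 higher in GFP-positive libraries. Of the Schwann list only Ncam1, which myoblasts also express, was lower in both populations. The part of any of these in the protease results was not tested.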

How the data were processed

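Libraries were made by SMART-Seq2, Tn5 fragmentation and PCR, per the labels' protocols, which do not keep strand, and were sequenced on a DNBSEQ-T7. STAR 2.7.11a, RSEM 1.3.3, DESeq2 1.42.0 and the GRCm38 build come per the submitters' processing notes. The authors deposited normalized counts per gene, a linear signal that each library's size factor scales. Dividing by each library's step returned whole reads for 100% of values (tolerance 0.0001), and all 12 value columns were used. Gene positions and transcripts came from GENCODE (99.8% of IDs matched), promoter windows from RefSeq.

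Groups were read from the sample titles. limma-trend (limma 3.58.1, R 4.3.3) was run on log2(normalized count + 1) over 4 group means and 12 libraries, two-sided, with Benjamini-Hochberg adjustment over the 14580 genes that reached 10 normalized counts in 3 or more libraries, and a threshold of 0.05. Log2 differences are on that scale and for low genes can depart in either direction from the ratio of group means, above all where a library is at 0. Values after ± are SE for log2 differences and SD (n = 3) for group means. The 5 comparisons were the plasmid label within each GFP label, the GFP label within each plasmid label, and their interaction.

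Members and lists were chosen with earlier results of these data known. Values in every library are given for members called in both plasmid comparisons or in a GFP comparison, and for the 4 called members with the largest difference and the 4 with the highest mean per plasmid comparison. Values in every library for Adamts4, Adamts6, Mmp2, Mmp15, Mmp23, Timp1 and Timp4, and list genes beyond 2 per list and comparison, were added once the values were known.

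On simulated reads the fit recovered 45% of 1.5-fold and 84% of 2-fold changes between the GFP-positive groups (5 false calls among 14117 unchanged genes), and 46% and 79% between the GFP-negative groups (7 among 14124). Changes were planted in 100 genes at each fold, while the data had 3394 and 4075 called genes in these comparisons. The changed genes all lay above a mean level that low members such as Adam22, Adamts17, Adamtsl1 and Mmp9 did not reach. The recovery of such members was not simulated. Replicates differed beyond sampling noise (chi-square per degree of freedom 7.71 to 49.4). Alternatives were other pseudocounts, filters and scalings, only the compared libraries, a replicate block, library weights, a transcript GC trend removed, edgeR 4.0.16 and DESeq2 1.42.0 on recovered reads, and each library left out. Removal of a trend with high-GC stretches was added after seeing the data.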

Additional observations from a re-analysis of the deposited data

Results flagged for a closer look

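Adam12 was the described member whose SIX2 libraries lay all above the control libraries in the GFP-positive population and all below them in the GFP-negative one. The share of all tested genes with this opposite pattern was not computed, so it is not known to be rare. Libraries without overlap were common, at 36.8% of tested genes in the GFP-positive population and 46.3% in the GFP-negative one. Other members had differences of opposite sign with overlapping libraries in at least 1 population, such as Mmp14 (log2 1.04 in the GFP-positive and −0.29 in the GFP-negative population). The 3 GFP-positive SIX2 libraries had 246 to 331 normalized counts, against 173 to 189 in GFP-positive control libraries, and the 3 GFP-negative SIX2 libraries had 249.9 to 347, against 358 to 435 in GFP-negative control libraries. The interaction was 1.00 on the log2 scale (limma-trend adjusted p = 0.0988). Over 24 alternatives it ranged from 0.85 to 1.12, with adjusted p of 0.00449 to 0.224, and passed the threshold in 2 of them, DESeq2 (0.00449) and limma with library weights (0.0386).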

How the results depend on the processing

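No called member changed direction under any of the alternatives run. Of 31 calls of a member in a comparison, 13 passed the threshold under every alternative and 20 under every alternative other than leaving out a library. The 13 were Adamts5, Adamtsl2 and Timp3 by plasmid label in both populations, Adam12 and Adamts14 in GFP-positive libraries, Adam9, Adamts10, Adamtsl5 and Timp2 in GFP-negative libraries, and Adam12 by GFP label in control libraries. Leaving out 1 library at a time gave 7 to 13 called members by plasmid label in GFP-positive libraries, with 7 without GFP-positive SIX2 replicate 1 and 8 without GFP-positive control replicate 2, and 9 to 18 in GFP-negative libraries, with 9 without GFP-negative SIX2 replicate 3. In GFP-negative libraries library weights called 22 members by plasmid label, 7 higher and 15 lower, against 6 higher and 9 lower as reported. With only the compared libraries the GFP-positive comparison called 9, with 6 higher and 3 lower, against 7 higher and 6 lower as reported. By GFP label, leaving out 1 library gave 1 to 3 in control libraries, with 1 without GFP-positive control replicate 1, GFP-positive SIX2 replicate 2, GFP-negative SIX2 replicate 2 or any GFP-negative control replicate. It gave 0 in SIX2 libraries and 0 for the interaction. By GFP label in control libraries, no filter and quantile normalization each left 1. By GFP label in SIX2 libraries DESeq2 called 1, and for the interaction DESeq2 and library weights called 1 each, Adam12; the causes were not tested. Same-numbered libraries did not deviate together (r of −0.108, 0.0111 and −0.203 for numbers 1 to 3 by plasmid label in GFP-positive libraries), so the numbers are not taken to pair them. With the replicate number as a block, the counts were 11 and 14 by plasmid label in GFP-positive and GFP-negative libraries, 2 and 0 by GFP label in control and SIX2 libraries, and 0 for the interaction. The shares of all tested genes called under these alternatives were not computed. The counts therefore show how member calls moved, and are not set against the other genes. Mmp9 rests on few reads, with 3 over the GFP-negative SIX2 libraries and 44 over the GFP-negative control libraries.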
